A study of Mus musculus with 2 samples.

Results

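The unfolded protein response and the heat shock response adjust the supply of chaperones to the load of unfolded protein, the first for the endoplasmic reticulum (ER) and the second for the cytosol. They were described here over 44 mouse genes listed by symbol, of which 42 had a transcript cluster annotated with that symbol alone, out of 19871 such genes in the table. Where a gene had several rows, the row with the highest mean of both columns was used. Hsp90ab1 and Hsf1 were not analysed here. The genes were compared between bone marrow derived macrophages labelled beta-catenin deficient (1 array) and control macrophages (1 array), both from mice of age 8 weeks and both grown in medium conditioned by L929 cells, mouse fibroblasts whose medium supplies the macrophage growth factor M-CSF. The sources used here do not give the mouse strain, the allele, any Cre driver or how many animals each culture came from.

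In the ER, the sensors Ern1 (IRE1), Eif2ak3 (PERK) and Atf6 detect unfolded protein. IRE1 splices the mRNA of the transcription factor Xbp1, ATF6 is cut to release a transcription factor, and PERK slows translation while raising that of Atf4. Their targets are chaperones, the machinery of ER-associated degradation (ERAD), which sends misfolded proteins back to the cytosol for the proteasome, and genes of amino acid supply and cell death. Secretory and phagocytic cells such as macrophages use this system heavily. In the cytosol the factor HSF1 drives heat shock proteins in a parallel way.

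The promoters of some of these genes carry short elements that the stress factors bind. A selection from genes with differences of either sign is shown so that element and direction can be read together. RefSeq promoter windows (build GRCm38.p6, 250 bases before to 50 bases after the annotated start) were matched for 36 of the 42 genes. Hyou1, Manf, Derl1, Atf6, Hspa8 and Hsp90aa1 had no window and were not searched. Each motif was searched on both strands. The ER stress element, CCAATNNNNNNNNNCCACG, to which ATF6 binds together with NF-Y, was in the windows of 8 of the 36 genes, namely Hspa5, Hsp90b1, Calr, Canx, Pdia6, Dnajc3, Creld2 and Syvn1, and in 0.119% of all 32851 windows. Its variant, ATTGG and CCACG with 1 free base between them, was in Dnajb11 and Herpud1 and in 0.0365% of all windows. Sequences are given 5′ to 3′ on the strand on which the motif reads as written, with the motif in capitals and 20 bases on each side.
Pdia6: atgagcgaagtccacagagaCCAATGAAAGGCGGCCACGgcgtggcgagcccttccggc, chr12:17266471-17266529, plus strand.
Creld2: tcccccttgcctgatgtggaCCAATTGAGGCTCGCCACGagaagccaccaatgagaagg, chr15:88819500-88819558, minus strand.
Dnajc3: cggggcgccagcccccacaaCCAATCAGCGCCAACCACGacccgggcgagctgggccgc, chr14:118937807-118937865, plus strand.
Hspa5: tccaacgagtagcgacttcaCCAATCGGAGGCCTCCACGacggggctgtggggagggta, chr2:34772005-34772063, plus strand.
Canx: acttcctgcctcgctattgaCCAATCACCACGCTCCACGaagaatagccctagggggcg, chr11:50325780-50325838, minus strand.
Syvn1: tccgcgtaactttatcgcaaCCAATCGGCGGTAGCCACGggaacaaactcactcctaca, chr19:6046512-6046570, plus strand.
Herpud1: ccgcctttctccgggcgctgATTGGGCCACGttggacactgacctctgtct, chr8:94386357-94386407, plus strand.

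The CARE, TGATGNAA, is the element of ATF4 with C/EBP partners. It was in the windows of Atf3, Trib3, Chac1, Asns, Nupr1 and Herpud1, and in 3.97% of all windows. The heat shock element of HSF1, searched as TTC, GAA and TTC with 2 free bases between neighbours, was in the windows of Hsph1, Hspd1, Hspe1 and Chordc1, and in 0.603% of all windows. For Chordc1 only the run of 3 overlapping matches is shown, on the strand of the gene, and it spans the annotated start. Hspd1 and Hspe1 are transcribed away from each other, and their element, a run of 2 overlapping matches, is the same stretch of chromosome 1, printed on the strand of Hspe1.
Nupr1: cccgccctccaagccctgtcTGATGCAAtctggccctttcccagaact, chr7:126625553-126625600, plus strand.
Asns: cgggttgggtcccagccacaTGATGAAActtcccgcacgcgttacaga, chr6:7693205-7693252, minus strand.
Chac1: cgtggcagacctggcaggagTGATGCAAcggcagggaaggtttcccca, chr2:119351029-119351076, minus strand.
Hspe1: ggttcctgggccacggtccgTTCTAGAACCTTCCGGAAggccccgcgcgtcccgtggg, chr1:55088039-55088096, plus strand.
Chordc1: GAACGTTCGGGAAAATTCCTGAA, chr9:18292263-18292285, plus strand.
A match describes these letters only, and binding was not measured. Only exact matches inside the window were counted. A gene without a match may still hold a looser or more distant form of the element.

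Values are log2 levels from RMA, and every difference is the array labelled deficient minus control, so 1 on this scale is 2-fold. With 1 array per group there is no replicate spread to set a difference against, and no p-value was computed. Ctnnb1, the gene of beta-catenin, had a level of 11.44 in the array labelled deficient and 11.29 in control, so this transcript does not check the label. Axin2, a gene switched on by beta-catenin and chosen after its value was seen, had 5.97 in the array labelled deficient and 7.61 in control, a difference of -1.64 with the deficient value below the floor of 7.28. Each direction below rests on the label. This floor for counting, applied to the mean of both arrays, is the median of all values, and all 42 genes were above it. Among the 10176 genes past this floor, 7.03% reached 1.5-fold upward in the array labelled deficient and 8.36% reached it downward, and the median difference was -0.08. Higher genes were 45.7% of those 1.5-fold apart, but 58.1% after each column was centred on its median, 54.9% after quantile normalization and 60.6% with a loess curve of the difference on level taken off. The loess curve moved the median over all rows from -0.17 to 0.00, so values after loess are given where they bear on a call or a direction. Markers of other cells differed too. Of 16 fibroblast and stromal markers at or above the floor, 14 reached 1.5-fold upward and 0 downward, the median difference was 1.17, and the summed linear level of all 19 with a row was 42590 in the array labelled deficient and 20884 in control. Of 14 neutrophil granule genes at or above the floor, 11 were higher and 0 lower (median 1.30, summed linear level of all 15 with a row 19230 in the array labelled deficient and 9044 in control). The 15 macrophage markers were all above the floor with a median of 0.11. Of these 15, 2 (13.3%) reached 1.5-fold upward and 0 downward. The part of these cells in the differences below was not tested, and more cells of a type and more RNA per cell cannot be told apart in bulk RNA.

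The stress genes showed no common shift. Of the 42 genes, 3 (7.14%) reached 1.5-fold upward in the array labelled deficient and 6 (14.3%) downward, against 7.03% and 8.36% over all genes past the floor. In either direction that is 21.4% of these genes and 15.4% of all genes. By mean level, 2 of 7 genes under 9, 6 of 22 from 9 to 11 and 1 of 13 above 11 were 1.5-fold apart, where 16.4%, 15.4% and 9.81% of all genes of those levels were. The higher genes were Pdia6, Creld2 and Nupr1. The lower genes were Selenok, Hspb1, Chordc1, Dnajb9, Edem1 and Chac1. At 2-fold, 0 were higher and 2 were lower, Selenok and Hspb1, where 2.66% of all genes were higher and 1.42% lower. The median over the 42 genes was -0.11, and 16 differences were above 0 and 26 below. The share of higher calls was close to that of all genes, and 19 of the 42 differences lay within 0.2 of 0.

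**Figure D1:**
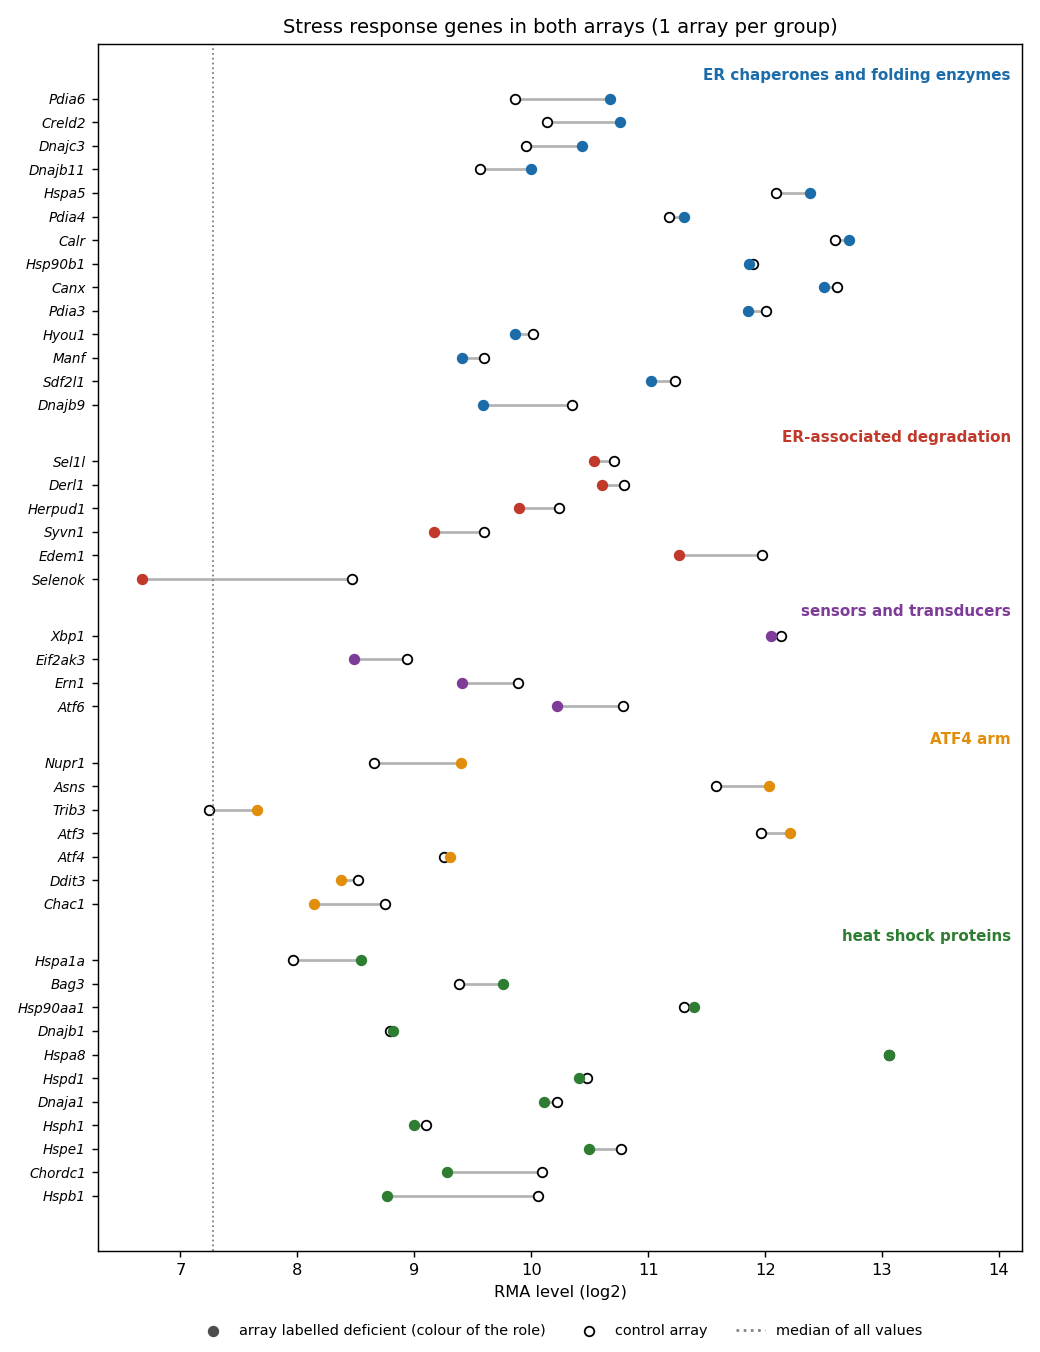
RMA level (log2, horizontal axis) of 42 stress response genes, grouped by role and ordered by difference, in the array labelled deficient (filled) and in control (open), 1 array per group, with a dotted line at the median of all values (7.28). The longest bars are those of Selenok (6.67 in the array labelled deficient, 8.47 in control) and Hspb1 (8.76 and 10.06 in the same order), and many pairs of points nearly coincide.

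By role, the rows used for all 6 ERAD genes and all 4 sensors and transducers were below 0, with medians of -0.39 and -0.46, where 58.9% of all genes past the floor were below 0. ER chaperones were divided, 7 above 0 and 7 below, with a median of 0.04, and 5 of 7 genes of the ATF4 arm were above 0, with a median of 0.25. The 11 heat shock genes had a median of -0.07, which was 0.01 after centring and so has no direction. The medians of the other 4 roles kept their sign after centring, quantile normalization and loess.

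**Figure D2:**
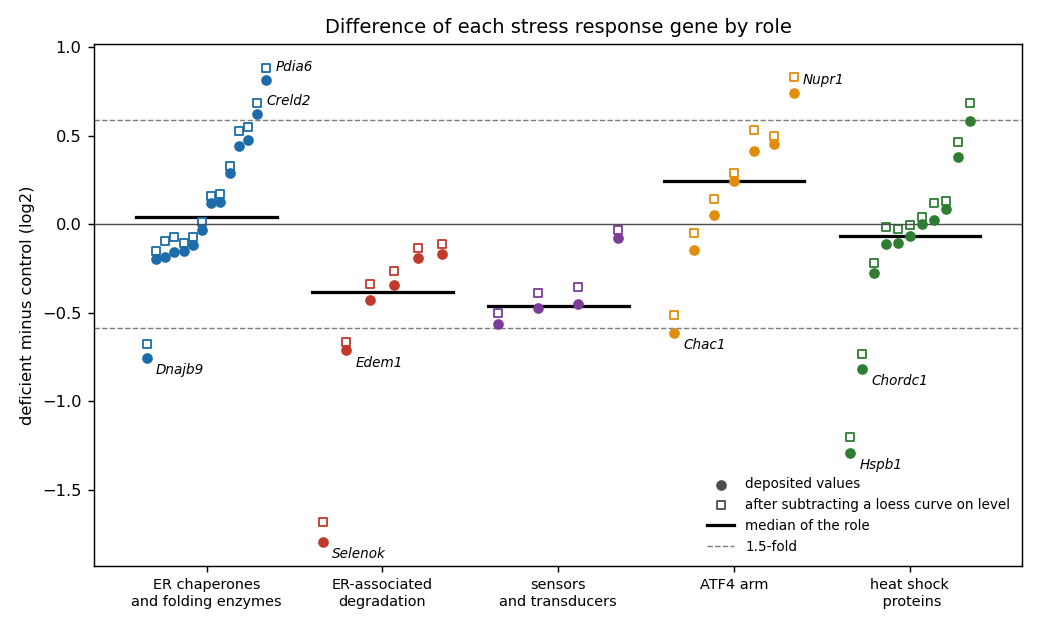
Difference of each gene (array labelled deficient minus control, log2, vertical axis) by role, from the deposited values (filled circles) and after subtraction of a loess curve on level (open squares), with the median of each role as a bar and dashed lines at 1.5-fold. ERAD genes (for Selenok, the row annotated to it alone) and sensors lie below 0 under both, and the named genes are those at least 1.5-fold apart in the deposited values.

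Among ER chaperones, BiP and the other major chaperones differed little, and Pdia6 and Creld2 were at least 1.5-fold higher. Hspa5, the Hsp70 chaperone BiP, had a level of 12.38 in the array labelled deficient and 12.10 in control (difference 0.29). Hsp90b1, the ER Hsp90 known as GRP94, had 11.86 in the array labelled deficient and 11.90 in control. The lectin chaperones that hold nascent glycoproteins did not move together, with 12.72 in the array labelled deficient and 12.60 in control for Calr (0.12), and 12.50 and 12.62 in the same order for Canx (-0.12). Their partner Pdia3, an oxidoreductase, differed by -0.15. The largest of these 5 differences was that of Hspa5.

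Pdia6, a disulphide isomerase that also tempers IRE1 signalling, was the highest of the 42, at 10.67 in the array labelled deficient and 9.86 in control. Its difference of 0.81 is 1.76-fold, and 3.88% of all genes at or above the floor had a larger one. Pdia4, another isomerase, had 11.30 in the array labelled deficient and 11.18 in control, a difference of 0.12. Creld2, an ER stress inducible protein with isomerase activity, had 10.76 in the array labelled deficient and 10.14 in control, a 1.54-fold difference. Manf, another small secreted protein induced by ER stress, differed by -0.19, from levels of 9.41 in the array labelled deficient and 9.60 in control.

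The J-domain proteins that work with BiP went apart. Dnajb11 (ERdj3) had 10.00 in the array labelled deficient and 9.56 in control, and Dnajc3 (p58IPK, which also restrains PERK) had 10.44 in the array labelled deficient and 9.96 in control, differences of 0.44 and 0.48. Dnajb9 (ERdj4), which brings BiP to IRE1 and is a target of spliced Xbp1, was opposite, at 9.59 in the array labelled deficient and 10.35 in control. Its difference of -0.75 is 1.69-fold, and it was the only chaperone gene of the 14 at least 1.5-fold lower. Sdf2l1, which forms a complex with ERdj3, differed by -0.20, and Hyou1, a nucleotide exchange factor for BiP, by -0.15.

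Chaperones with an exact match to the ER stress element and chaperones without one lay on both sides of 0. Hyou1 and Manf had no window. Whether the element bears on direction was not tested. The 7 chaperone genes that hold it ranged from -0.12 for Canx to 0.81 for Pdia6, with a median of 0.29. Of the 5 with a promoter window and no exact match, Dnajb11 (0.44) holds the variant element, and Pdia4 differed by 0.12. Pdia3 differed by -0.15, Sdf2l1 by -0.20 and Dnajb9 by -0.75, each lower than all 7 with a match. Syvn1, an ERAD gene with the element, differed by -0.43.

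In the rows used, each of the 6 ERAD genes had a lower level in the array labelled deficient, but for Selenok a second row had the opposite sign. Edem1, a lectin that draws misfolded glycoproteins out of the folding cycle, had 11.27 in the array labelled deficient and 11.98 in control, a difference of -0.71 or 1.64-fold. It was the only one of the 13 stress genes with a mean level above 11 that was 1.5-fold apart. Syvn1, the ubiquitin ligase Hrd1, had 9.17 in the array labelled deficient and 9.60 in control (-0.43), and its adaptor Sel1l had 10.54 and 10.71 in the same order (-0.17). Derl1, a channel component, differed by -0.19. Herpud1, a scaffold of the ligase complex whose promoter window holds both the variant ER stress element and the CARE, had 9.90 in the array labelled deficient and 10.24 in control (-0.34). The median of the role was -0.30 after loess, against 0.01 over all genes at or above the floor, and the rows used for all 6 stayed below 0.

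Selenok, an ER selenoprotein that binds Derlins, had the lowest difference of the 42, at 6.67 in the array labelled deficient and 8.47 in control, or 3.47-fold. Its level in the array labelled deficient was below the floor, and 0.0688% of all genes at or above the floor had a lower difference. A second row, annotated to Selenok together with BC052688, went the other way, with 9.36 in the array labelled deficient and 8.84 in control, a difference of 0.52. The direction for Selenok therefore depends on which row is read, and the other 5 ERAD genes do not share this row. The median of those 5 was -0.34.

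The 3 sensors were lower by less than 1.5-fold, and Xbp1 was nearly level. Atf6 had 10.22 in the array labelled deficient and 10.78 in control, a 1.48-fold difference just inside the threshold. Ern1 had 9.41 in the array labelled deficient and 9.88 in control (-0.47), and Eif2ak3 had 8.49 in the array labelled deficient and 8.94 in control (-0.45). After loess the differences were -0.50 for Atf6, -0.39 for Ern1 and -0.35 for Eif2ak3. Xbp1, the substrate of IRE1, was at 12.05 in the array labelled deficient and 12.13 in control. A transcript cluster sums the spliced and unspliced forms, so splicing was not measured.

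In the ATF4 arm 5 of 7 genes were above 0, of which Nupr1 passed 1.5-fold, and the glutathione-degrading Chac1 passed it downward. Atf4 itself, which is regulated mostly at translation, had 9.30 in the array labelled deficient and 9.25 in control. Nupr1, a small stress-induced nuclear protein, had 9.40 in the array labelled deficient and 8.66 in control, a 1.67-fold difference. Asns, which makes asparagine and is a classical ATF4 target, had 12.04 in the array labelled deficient and 11.58 in control (0.45). Trib3, a pseudokinase that feeds back on ATF4, had 7.66 in the array labelled deficient and 7.24 in control (0.41), and its control value lies just below the floor. Atf3, a repressor induced in many stresses, had 12.21 in the array labelled deficient and 11.97 in control (0.25).

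Chac1 had 8.14 in the array labelled deficient and 8.75 in control, a difference of -0.61 that passes 1.5-fold by little and was -0.51 after loess. Ddit3, the death-promoting factor CHOP that acts together with ATF4 at Chac1 and Trib3, had 8.38 in the array labelled deficient and 8.52 in control (-0.15). Of the 5 genes of this arm whose promoter window holds the CARE, 4 were above 0 (Nupr1, Asns, Trib3 and Atf3) and Chac1 was below, so genes with the element lay on both sides of 0.

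Heat shock genes were mostly level, apart from 2 lower ones. Hspb1, the small heat shock protein Hsp27 that binds actin and unfolded protein, had 8.76 in the array labelled deficient and 10.06 in control, a difference of -1.29 or 2.45-fold. Its second row went the same way, at 8.73 in the array labelled deficient and 9.77 in control (-1.04). Only 0.432% of all genes at or above the floor had a lower difference than the first row. Chordc1, a partner of Hsp90 with the run of heat shock elements shown above, had 9.28 in the array labelled deficient and 10.09 in control, a difference of -0.82 or 1.76-fold.

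Hspa8, Hsp90aa1, Dnajb1 and Hsph1 showed no such difference. Hspa8, the constitutive Hsp70, was at 13.06 in both arrays, and the 3 rows annotated to it alone lay between -0.02 and 0.06. Hsp90aa1, the inducible Hsp90, had 11.39 in the array labelled deficient and 11.31 in control, with its 3 rows from 0.02 to 0.16. Dnajb1, the Hsp40 partner of inducible Hsp70, had 8.81 in the array labelled deficient and 8.79 in control. Hsph1, an exchange factor for Hsp70 whose window matched the heat shock element, had 8.99 in the array labelled deficient and 9.10 in control.

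Inducible Hsp70 and its partner Bag3 were the highest of this role. Hspa1a had 8.55 in the array labelled deficient and 7.96 in control, a difference of 0.58 just under the threshold, which became 0.68 after loess and passed it. Hspa1a and Hspa1b are near-identical copies, and the row annotated to both had 9.01 in the array labelled deficient and 8.91 in control, a difference of 0.09, so the value is uncertain. Bag3, a co-chaperone that links Hsp70 to autophagy and is itself induced by heat shock, had 9.76 in the array labelled deficient and 9.39 in control (0.38).

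The mitochondrial chaperonin pair shares the heat shock element shown above. Hspe1 (Hsp10) had 10.49 in the array labelled deficient and 10.77 in control (-0.28), and -0.42 in its second row. Hspd1 (Hsp60) had 10.41 in the array labelled deficient and 10.48 in control (-0.07), but its second row had 9.95 in the array labelled deficient and 9.31 in control (0.64), so its rows disagreed. For Dnaja1, an Hsp40 of the cytosol, the first row gave -0.10 and the dimmer second row -0.74. Both rows of Dnajc3 gave 0.48, with the same levels in each array, and count as 1 measurement.

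**Figure D3:**
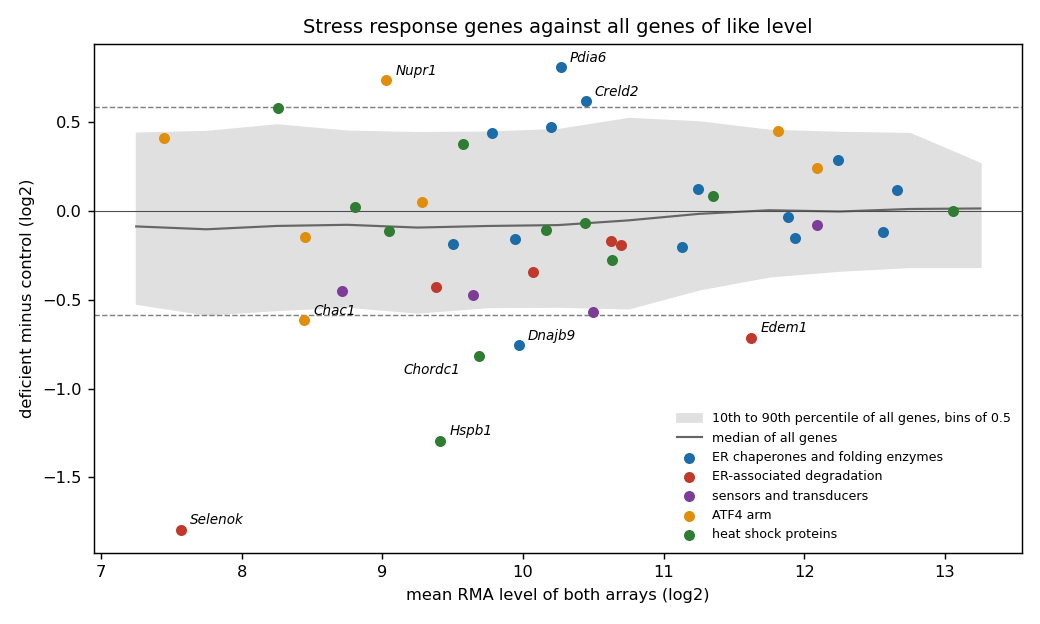
Difference (array labelled deficient minus control, log2) against the mean level of both arrays (log2) for the 42 stress response genes, coloured by role, with the 10th to 90th percentile range (grey) and the median (line) of all genes in bins of level, and dashed lines at 1.5-fold. The 9 named genes lie outside the dashed lines, and the grey range narrows at high levels, where Edem1 stands below it.

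Further genes came from lists written by role, for the same pathways and also for selenoproteins and immediate early genes, described under other observations. Over 193 genes of all these lists past the floor, 17 (8.81%) reached 1.5-fold upward and 11 (5.70%) downward. Over all genes past the floor, 7.03% and 8.36% did, and the counts of each list below stand beside these shares. Of 31 other ER folding genes at or above the floor, 4 reached 1.5-fold upward and 1 downward (median 0.01). The highest were the prolyl isomerases Fkbp7 (9.90 in the array labelled deficient and 8.82 in control) and Fkbp14 (8.19 and 7.40 in the same order), the second of which takes part in collagen folding. The other 2 that reached 1.5-fold upward were disulphide isomerases, Pdia5 (8.73 in the array labelled deficient and 8.09 in control) and Txndc5 (9.84 and 9.25 in the same order), while the isomerase P4hb differed by -0.09. These 3 were chosen after their values were seen. The lowest were the glycan-binding Mlec (-0.67) and Hspa13 (-0.49).

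The 25 other ERAD genes past the floor lay on both sides of 0, with 2 at 1.5-fold upward, 2 at 1.5-fold downward and a median of -0.07. The highest were Os9, a lectin of the Hrd1 complex (10.76 in the array labelled deficient and 10.07 in control), and Ufd1, a cofactor of the extraction motor p97 (0.67). The lowest were Faf1 (-0.84), also a p97 cofactor, and the ligase Rnf139 (-0.60). Of 13 other sensors, proteases and eIF2alpha kinases, 1 was higher and 2 were lower, with a median of -0.01. Eif2ak2, the interferon-inducible kinase PKR (0.62), and the ER factor Creb3 (0.38) were highest, and Bak1, a pore-forming death protein that also binds IRE1 (-0.78), and the ATF6 homologue Atf6b (-0.60) were lowest.

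Of 32 other ATF4 targets at or above the floor, 4 reached 1.5-fold upward and 1 downward (median -0.06). Aldh1l2, a mitochondrial folate enzyme, had 8.47 in the array labelled deficient and 6.93 in control, and the lipoprotein receptor Vldlr was next (0.86), both below the floor in control. The arginine transporter Slc7a1 (8.96 in the array labelled deficient and 9.95 in control) and the translation repressor Eif4ebp1 (-0.55) were lowest. The other 6 targets with a row had a mean below the floor. Among them Stc2 and Cth each differed by 0.89, and Stc2 was above the floor in the array labelled deficient (7.59). Slc7a3, Cbs, Fgf21 and Bbc3 were below 0.

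Of 33 other heat shock and co-chaperone genes, 3 reached 1.5-fold upward and 0 downward (median -0.07). Serpinh1, the collagen chaperone Hsp47, had 10.50 in the array labelled deficient and 8.50 in control, the largest difference of these lists (2.00), and the small heat shock protein Hspb6 was next (0.86). Serpinh1 is also among the stromal markers, whose median was 1.17. The lowest were Hspa4l (-0.53) and Hspa2 (-0.33). The 8 subunits of the cytosolic chaperonin TRiC all lay within 1.5-fold (median 0.15), from Cct7 (-0.25) and Cct8 (-0.16) up to Cct5 (0.30) and Cct4 (0.51). The 13 mitochondrial chaperones and proteases did so too (median -0.03), from the exchange factor Grpel1 (-0.34) and Dnaja3 (-0.32) up to Clpb (0.18) and Trap1 (0.33).

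**Figure D4:**
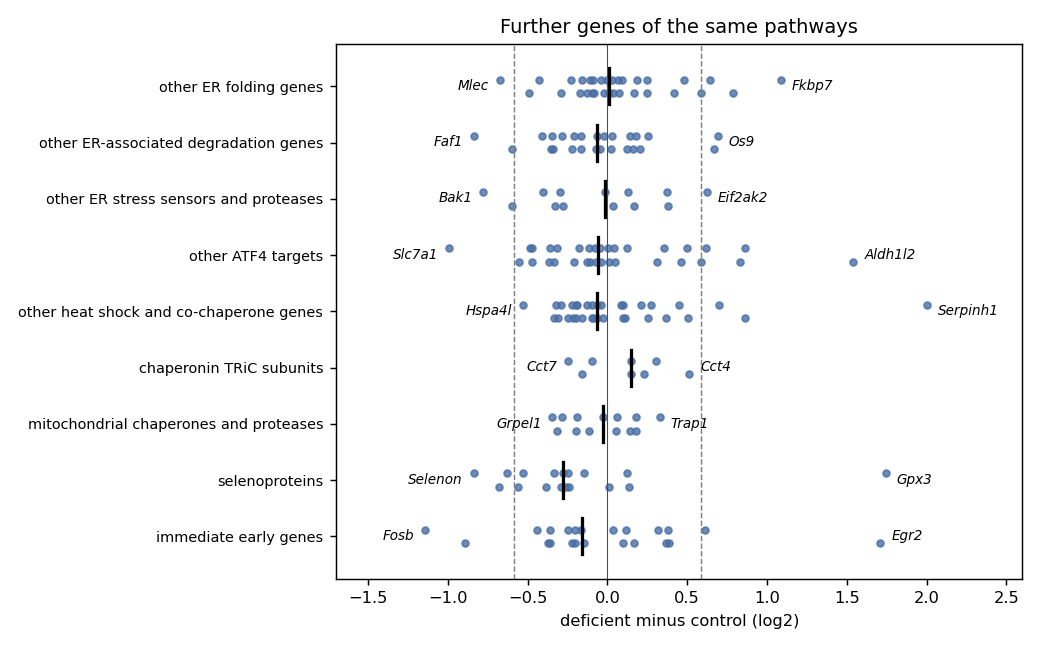
Difference (array labelled deficient minus control, log2, horizontal axis) of further genes at or above the floor in 9 lists, 1 point per gene, with the list median as a bar, dashed lines at 1.5-fold and the extreme genes named. Medians lie between -0.28 (selenoproteins) and 0.15 (TRiC), and single genes such as Serpinh1 (2.00) and Aldh1l2 (1.54) stand apart from their lists.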

How the data were processed

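Total RNA of 2 macrophage cultures was hybridised to whole-transcript arrays, 1 per group. The deposited values are on a log2 scale (2.12 to 14.1, scale taken from the range) and came from RMA, per the submitters' processing notes. The sources used here give neither its version nor any filter. The table has 25917 rows, of which 21632 had 1 symbol in GEO's platform annotation, 1560 several and 2725 none. Entrez IDs matched to RefSeq (GRCm38.p6) changed 0 symbols. RMA values carry no read depth, and the number of arrays limits the precision. The members and lists were chosen with earlier results of these data known. The rule for naming covered all members, Ctnnb1, and the 2 highest and 2 lowest genes of each further list. Axin2, Pdia5, Txndc5, P4hb, the ATF4 targets with a mean below the floor and the cell type markers were named outside it. Calls are rules of size (1.5-fold and 2-fold), since 1 array per group allows no test. The loess curve (statsmodels 0.14.6, fraction 0.3) was fitted over all rows. The 2-fold call and the loess step were tested on simulated data with planted differences larger than 2-fold. The 1.5-fold call was not tested in this way. The noise of that simulation was a set value not taken from these data, so it checks the code and not the calls made here. Alternatives were other floors, centring, quantile normalization, loess, and averaging of rows.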

Additional observations from a re-analysis of the deposited data

How the results depend on the processing

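With 1 array per group, no difference has a replicate error, and no paired analysis was possible because each group had a single array. Of 83 medians and counts recomputed under other settings, 80 stayed within 0.1 (medians) or 1.5 times (counts). The first exception was the ERAD median of -0.39, whose mean was -0.61. Of the 2 genes at least 2-fold lower, 1 remained with a floor at the 75th percentile (9.07). The 17 genes of all further lists at least 1.5-fold higher were 10 with that floor. These floors leave fewer genes. Counts of higher and lower members were 4 and 5 after centring, quantile normalization and loess, since Hspa1a passed 1.5-fold (0.65, 0.64 and 0.68) and Chac1 did not (-0.54, -0.55 and -0.51). That is 9.52% higher and 11.9% lower, where 8.67% and 6.25% of all genes past the floor were after centring, 8.13% and 6.68% after quantile normalization, and 8.99% and 5.86% after loess. Under scaling or row averaging the sign turned for 3 members near 0, namely Hsp90b1, Hspa8 and Hspd1. The row shared by Selenok and BC052688, an alternative chosen after seeing the data, gave 0.52 in place of -1.79, and the cause was not tested. The row shared by Hspa1a and Hspa1b gave 0.09, and that shared by Dnaja1 and Mir207 gave -0.38. Rows shared by Hspa8 with Snord14d and Snord14c gave -0.42 and -0.41. Their mean level was 9.88, below the 13.06 of the row used for Hspa8. Low RMA levels carry no detection call, which limits Selenok and Trib3.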

Other observations

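Because Selenok is a selenoprotein, the other selenoproteins were listed too. Of 17 at or above the floor, 13 (76.5%) had a difference below 0, where 58.9% of all genes at or above the floor did. At least 1.5-fold lower were 3 (17.6%, beside 8.36% of all genes) and higher was 1 (5.88%, beside 7.03%). The median was -0.28, beside -0.08 over all genes at or above the floor. After loess it was -0.18, beside 0.01. Selenon, an ER protein of calcium handling, had 9.15 in the array labelled deficient and 9.99 in control, and the secreted selenium carrier Selenop had 11.62 in the array labelled deficient and 12.29 in control. Gpx3, the plasma glutathione peroxidase, went the other way, with a difference of 1.74, and Selenoi, a phospholipid enzyme, was next at 0.13.

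Immediate early genes, which respond to handling and stress within minutes, went both ways. Among 22 past the floor, 2 (9.09%) reached 1.5-fold upward and 2 (9.09%) downward, with a median of -0.16. Over all genes past the floor, 7.03% and 8.36% did. Egr2 was highest (1.71), and Fosl1 was next (0.61). Fosb had 6.84 in the array labelled deficient and 7.98 in control, and Klf4 differed by -0.89.

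Markers of other lineages were mostly dim. Of 8 mast cell and basophil markers with a row, 5 had a mean below the floor, and of those above it 1 was at least 1.5-fold higher. By array, 3 of the 8 were below the floor in the array labelled deficient and 7 in control. Those with a mean below it include the basophil protease Prss34, with 8.41 in the array labelled deficient and 6.11 in control, and the mast cell carboxypeptidase Cpa3, with 7.66 in the array labelled deficient and 5.68 in control (both chosen after their values were seen). Also below it by the mean were Fcer1a, with a difference of -0.45, Kit (-0.05) and Ms4a2 (0.11), so the list did not move together. By the mean, 6 of 10 plasma and B cell markers were below the floor, as were 7 of 8 T and NK cell markers. So were 6 of 8 dendritic cell markers and 2 of 6 erythroid and platelet markers. Those 2 were the erythroid Klf1, with a difference of -0.77, and Epor (-0.22). The remaining 4 are platelet markers, of which Ppbp, Itga2b and Gp9 were at least 1.5-fold higher, where 7.03% of all genes past the floor were. Gp9 was below the floor in control (7.23), and Pf4 differed by 0.46.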
